A study of Mus musculus with 40 samples.

Results

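The RNA levels of 10 leukocyte integrin subunits were read in CD11b+ cells sorted from mouse brains with and without a glioma. The 10 genes, of 54513 genes in each of 3 deposited tables, were taken by name: Itgam, Itgb2, Itgal, Itgax, Itgad, Itga4, Itgb7, Itga6, Itga9 and Itgae. All 10 had a value in all 35 samples analysed.

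In the first experiment, male C57BL/6 mice aged 10 to 12 weeks received GL261 cells, a murine glioma line, in the right striatum. An osmotic pump delivered vehicle (water), 7aaRGD at 2 mg/ml or 7aaRAE at 2 mg/ml into the tumor, and naive mice had no tumor. 7aaRGD is a synthetic peptide with the arginine-glycine-aspartate motif that αv integrins bind, and 7aaRAE is its control with the motif altered. Cells were sorted at 21 days post-implantation (DPI), with 3 samples in each of the 4 groups and 2 animals pooled in each sample. In the second experiment cells came from 1 animal per sample at 28 DPI, with 3 samples for 7aaRGD combined with anti-PD-1 (the combination), 3 for anti-PD-1 alone and 4 each for vehicle and for 7aaRGD. The antibody was given at 10 mg/kg, and the groups without it received control IgG. The sample labels give nude mice for these animals, whereas the study's methods give GL261 tumors in C57BL/6 mice. In the third experiment, U87-MG, a human glioma line, was grown in male Athymic Nude-Foxn1nu mice, which lack a thymus and most T cells, and cells were sorted at 21 DPI from vehicle, 7aaRGD and 7aaRAE groups of 3 samples with 2 animals each. The naive nude mice were not analysed here. Mice of all experiments were aged 10 to 12 weeks, and peptides were at 2 mg/ml wherever they were given. Values are RPKM, reads scaled to the exon length of the gene and to the reads of the sample, and the read depth of each sample is unknown.

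Integrins are paired receptors of 1 α and 1 β chain. The β2 chain, encoded by Itgb2 (CD18), pairs with αL (Itgal, LFA-1), αM (Itgam, CD11b), αX (Itgax, CD11c) and αD (Itgad, CD11d). LFA-1 binds intercellular adhesion molecules, and αM and αX with β2 are complement receptors that bind the C3 fragment iC3b. The α4 chain (Itga4) pairs with β1 or with β7 (Itgb7) and binds VCAM-1, fibronectin or MAdCAM-1, and αE (Itgae, CD103) pairs with β7 and binds E-cadherin. The α6 chain (Itga6) forms laminin receptors with β1 or β4, and α9 (Itga9) pairs with β1 and binds tenascin-C, osteopontin and VCAM-1. Microglia, the resident myeloid cells of the brain, carry αMβ2 throughout life, whereas α4 and αL are used to tell blood-derived leukocytes from microglia.

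Itgam encodes CD11b, the antigen on which the cells were sorted, so its level was partly set by the gate. On mm10, Itgam (7:128062640-128118491), Itgax (7:128129547-128150657) and Itgad (7:128154376-128223816) lie next to each other on the plus strand of chromosome 7, and Itgal (7:127296260-127335138) lies upstream of them. Itgb2 is at 10:77530252-77565708, Itga4 at 2:79255426-79333123, Itga6 at 2:71745616-71858416, Itga9 at 9:118606690-118901003 and Itgae at 11:73090583-73147446, all on the plus strand, and Itgb7 is at 15:102215995-102231944 on the minus strand. The gene models limit 1 member in particular. Of the 5024 exonic bases of Itgam, 3450 are shared on the same strand with Gm49368, a gene listed at 0.0342 to 0.609 RPKM, and reads in shared exons may not have been counted for either gene. If none were counted, the level of Itgam would be 3.19 times the deposited one, by the same factor in every sample. Differences between groups in Itgam do not depend on that factor, but its rank among the members does. The other exon overlaps were between Itga4 and Cerkl on the opposite strand, and between Itgad and 4 neighbouring genes.

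The proximal promoters are shown for 2 pairs of members: Itgam and Itgax, neighbours whose RNA differed from naive in opposite directions, and Itga4 and Itgb7, partner chains that were both higher with a tumor. Each is the 250 bases before the RefSeq start (GRCm38.p6), written in the direction of transcription: chr7:128062390-128062639 for Itgam, chr7:128129300-128129549 for Itgax and chr2:79255176-79255425 for Itga4 on the plus strand, and chr15:102231936-102232185 for Itgb7 on the minus strand. Capitals mark GAGGAA, the purine-rich core bound by the myeloid factor PU.1, on either strand.

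Itgam: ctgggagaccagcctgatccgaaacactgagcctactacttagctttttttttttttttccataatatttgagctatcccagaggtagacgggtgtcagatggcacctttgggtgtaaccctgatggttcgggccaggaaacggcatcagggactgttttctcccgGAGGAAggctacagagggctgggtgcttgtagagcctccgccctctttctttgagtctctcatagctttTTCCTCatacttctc

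Itgax: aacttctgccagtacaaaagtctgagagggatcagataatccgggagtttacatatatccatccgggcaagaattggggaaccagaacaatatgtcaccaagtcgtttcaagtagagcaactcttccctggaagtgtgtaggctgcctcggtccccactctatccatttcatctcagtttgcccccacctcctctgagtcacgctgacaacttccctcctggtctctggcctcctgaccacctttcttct

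Itga4: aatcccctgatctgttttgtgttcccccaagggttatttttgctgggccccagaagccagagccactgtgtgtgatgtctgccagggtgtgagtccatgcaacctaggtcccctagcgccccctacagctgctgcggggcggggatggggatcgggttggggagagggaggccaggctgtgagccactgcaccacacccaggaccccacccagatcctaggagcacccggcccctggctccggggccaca

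Itgb7: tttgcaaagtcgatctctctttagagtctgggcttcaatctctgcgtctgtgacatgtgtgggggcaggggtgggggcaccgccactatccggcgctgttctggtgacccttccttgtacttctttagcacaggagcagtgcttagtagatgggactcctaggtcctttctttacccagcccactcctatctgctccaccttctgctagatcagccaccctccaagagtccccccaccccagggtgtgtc

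The Itgam window held 2 matches, which began 84 bases before the start on the plus strand and 15 bases before it on the minus strand, and the other 3 windows held 0. GAGGAA was found on either strand in 7639 of 32851 promoter windows of the same length (23.3%), so a match is common. RefSeq entries were found for 5 of the 10 members. The entry for Itga9 began 105002 bases inside the gene and is not shown.

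The markers of the sorted cells differed between the experiments, which bears on every level below. The summed level of 8 homeostatic microglia genes (Tmem119, P2ry12, Sall1 and others) was 15638 to 16190 RPKM in naive samples, 1294 to 1882 RPKM in vehicle samples at 21 DPI and 8369 to 10308 RPKM in U87-MG vehicle samples. The sum of 8 monocyte and macrophage genes (Ccr2, Ly6c2 and others) was 26.4 to 29.3, 1250 to 1702 and 278 to 382 RPKM in the same groups. With RNA from bulk samples, fewer cells of a type and less RNA per cell cannot be told apart. Between naive and vehicle cells at 21 DPI, the monocyte sum thus moved with Itgal, Itgax, Itga4 and Itgb7, and the microglia sum with Itgam, Itga6 and Itga9. Vehicle samples at 28 DPI, in a table scaled separately, had 187 to 299 RPKM of monocyte genes and 1533 to 2167 RPKM of microglia genes. The other lists were read in the same comparison of vehicle with naive cells, in which 82.9% of all genes tested passed. Neutrophil genes had 1 higher and 4 lower of 7 tested, dendritic cell genes 2 higher of 4, endothelial genes 2 higher of 2, astrocyte genes 2 higher and 1 lower of 3, and oligodendrocyte genes 1 higher and 1 lower of 3. Of natural killer cell genes 1 of 1 tested was higher, of B cell genes 1 of 1 was lower, of platelet genes 1 of 2 was lower, and 0 of 9 T cell genes reached the minimum for testing. The part of cell composition in the results below was not tested.

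In naive brain, Itgb2 stood at 292 ± 10.2 RPKM (SD, n = 3), the highest of the members as deposited and position 104 among all protein-coding genes. It was followed by Itgam at 115 ± 4.32, Itga6 at 83.9 ± 1.35 and Itga9 at 34.5 ± 0.489 RPKM, without overlap between samples of neighbouring genes. Itgax at 6.60 ± 0.496, Itgb7 at 4.23 ± 0.700, Itgal at 4.00 ± 0.121 and Itga4 at 1.39 ± 0.242 RPKM formed a low group, in which Itgb7 and Itgal overlapped. Itgae was at 0.685 ± 0.123 RPKM, and Itgad ranged from 0.000422 to 0.0278 RPKM. As deposited, Itgb2 was the highest and Itgad the lowest member in all 11 groups of the 3 tables, and Itgae was the next to lowest in all 11. Whether Itgb2 or Itgam led in naive cells depends on the shared-exon factor of 3.19 for Itgam.

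The comparison of vehicle with naive cells shows how a GL261 tumor, with its implantation surgery and water pump, goes together with these levels. No surgery or pump is described for the naive mice, so tumor and procedure cannot be told apart. With the tumor, 4 chains that were low in naive cells (Itgax, Itgal, Itgb7 and Itga4) were 7.61 to 17.7 times higher on the RPKM + 1 scale, and Itga6, Itga9 and Itgam were lower. Of 9 members tested, 9 passed (limma on log2(RPKM + 1), adjusted p under 0.05 over 9722 genes), 6 higher and 3 lower. The background was high, since 82.9% of all genes tested passed, 34.6% higher and 48.2% lower, so the count alone sets the members apart little. The median log2 difference was 0.74 over the members and -0.14 over all genes. The sizes are given below by role.

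**Figure D1:**
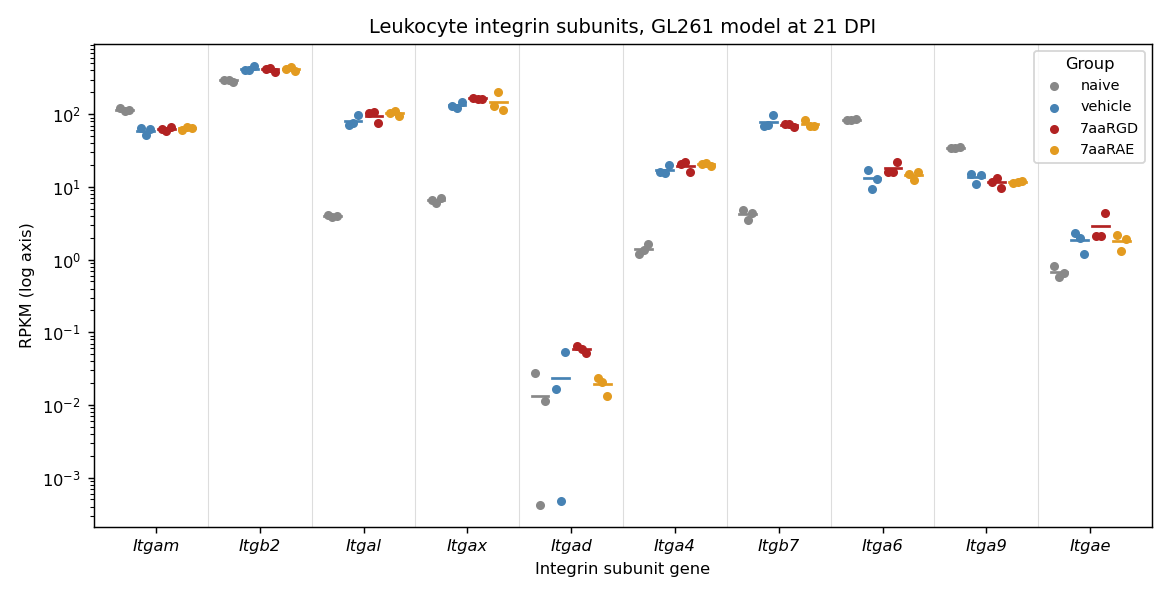
Levels of the 10 members in CD11b+ cells of the GL261 experiment at 21 DPI, as RPKM on a log axis. Each point is 1 of 3 samples in the naive, vehicle, 7aaRGD or 7aaRAE group and each bar is the group mean. Itgal, Itgax, Itga4 and Itgb7 lie far higher in the 3 tumor groups than in naive cells, Itga6 and Itga9 lie lower, and the 3 tumor groups lie close together.

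Among the β2 family, Itgb2 was measured at 299, 297 and 280.15 RPKM in naive samples and at 406, 401 and 462 RPKM in vehicle samples. All vehicle samples lay above all naive samples, and the log2 difference was 0.53 (SE 0.07, adjusted p = 0.00019). The Itgb2 difference was 0.08 with an adjusted p of 0.34 after quantile normalization, and 0.71 with an adjusted p of 5.56e-05 with median-of-ratios scaling. Itgam was at 120.0, 112 and 113 RPKM in naive and 63.8, 51.2 and 63.4 RPKM in vehicle samples, and fell by 0.95 on the log2 scale (SE 0.09, adjusted p = 1.95e-05). The CD11b gene was thus lower in every vehicle sample, although both groups were sorted on CD11b. Itgal was at 4.13, 3.89 and 3.98 RPKM in naive samples and at 70.9, 75.7 and 98.96 RPKM in vehicle samples. Its log2 difference of 4.04 (SE 0.12, adjusted p = 3.28e-08) was passed by 156 of 9722 genes in that direction. Itgax, the marker gene of many dendritic cells and of activated macrophages, had 6.61, 6.09 and 7.09 RPKM in naive and 132, 122 and 148 RPKM in vehicle samples. It had the widest gap of the members, with a log2 difference of 4.15 (SE 0.08, adjusted p = 8.01e-09), and 141 genes had a larger one. Itgad stayed between 0.000469 and 0.0543 RPKM in vehicle samples and was below the minimum for testing.

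The α4 and β7 chains behaved like Itgal and Itgax. Itga4 was measured at 1.18, 1.35 and 1.66 RPKM in naive samples and at 16.1, 15.7 and 19.9 RPKM in vehicle samples. Its log2 difference was 2.93 (SE 0.11, adjusted p = 9.98e-08). Itgb7 was at 4.83, 3.46 and 4.39 RPKM in naive samples and at 68.96, 72.1 and 97.2 RPKM in vehicle samples, a log2 difference of 3.94 (SE 0.15, adjusted p = 1.05e-07). Naive and vehicle samples did not overlap for either gene. Itgae, the other α partner of β7, had 0.819, 0.577 and 0.659 RPKM in naive and 2.35, 1.98 and 1.21 RPKM in vehicle samples. Its difference was smaller, 0.74 on the log2 scale (SE 0.15, adjusted p = 0.00185), and left it far below Itga4.

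Itga6 and Itga9 went the other way. Itga6 was at 83.1, 83.2 and 85.5 RPKM in naive samples and at 17.3, 9.48 and 12.8 RPKM in vehicle samples. It fell by 2.62 on the log2 scale (SE 0.17, adjusted p = 2.18e-06), further than all but 134 of the genes tested. Itga9 was at 34.0, 34.6 and 34.9 RPKM in naive samples and at 15.3, 10.99 and 14.8 RPKM in vehicle samples, and fell by 1.29 (SE 0.11, adjusted p = 1.11e-05). Itgb1, their β partner, was at 126 ± 2.87 RPKM in naive and 99.8 ± 1.81 RPKM in vehicle samples and fell by 0.34 (adjusted p = 0.000305). Itgb4, the other partner of α6, was under 0.1 RPKM in both groups.

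The make-up of the β2 α chains differed accordingly. Of the summed RPKM of Itgam, Itgal, Itgax and Itgad, Itgam held 91.1% to 91.8% in naive and 20.4% to 24.0% in vehicle samples. Itgax held 4.99% to 5.72% in naive and 47.7% to 49.4% in vehicle samples, and Itgal 3.16% to 3.21% and 26.6% to 31.9%. If reads in the exons shared with Gm49368 were not counted for Itgam, its mean share would be 97.2% in naive and 46.8% in vehicle samples, so the fall remains while the order of Itgam and Itgax in the tumor is uncertain. With Itgam as deposited, the α sum was 0.431 times the Itgb2 level in naive and 0.649 times in vehicle samples. The direction of this difference depends on whether reads in the shared exons were counted, so no rise in the ratio is claimed. These shares are descriptions of the same values and were not tested.

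**Figure D2:**
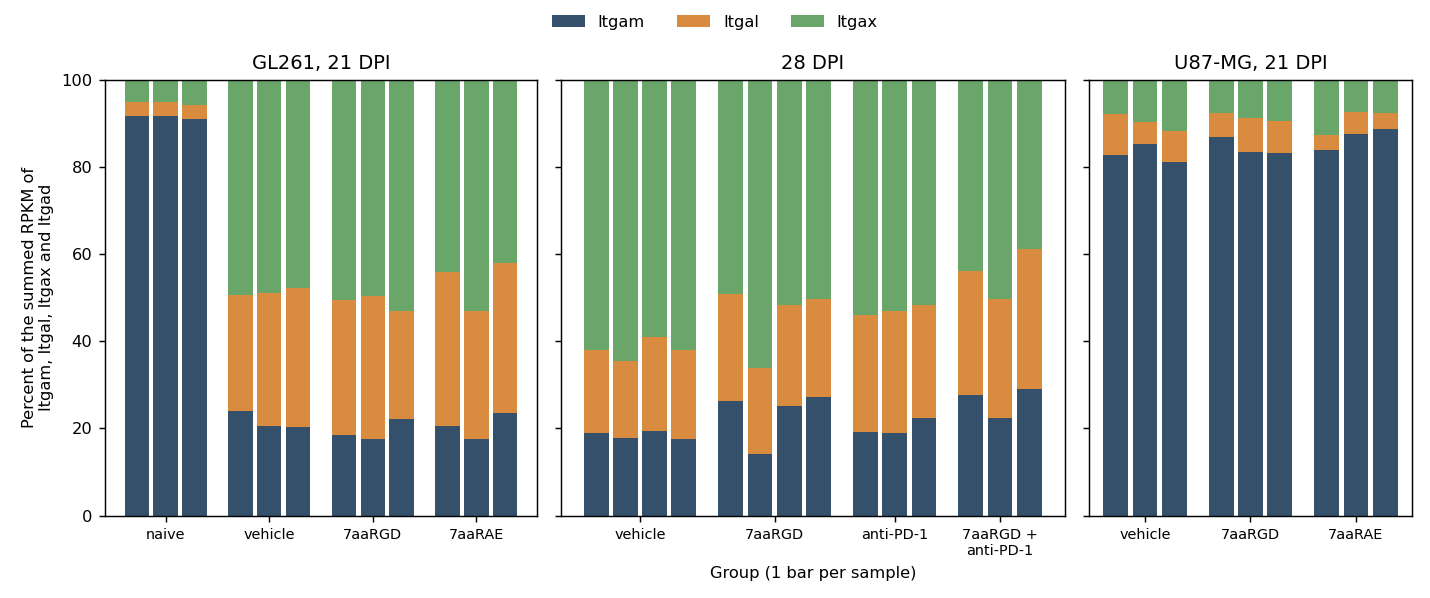
Shares of Itgam, Itgal and Itgax in the summed RPKM of the 4 β2 α chains, in percent, with 1 stacked bar per sample and 1 panel per experiment. Itgad is in the sum but too low to show as a band. Itgam holds most of the sum in naive cells (mean 91.6%) and in the U87-MG groups (means of 83.0% to 86.7%), and Itgax holds the largest band in the tumor groups of the other panels. Itgam is as deposited, without the shared-exon factor.

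Genes around the integrins also differed between vehicle and naive cells. Against the 34.6% of all genes that were higher and 48.2% that were lower, 10 of 18 ligand genes were tested, and 7 were higher and 3 lower. The complement component C3, source of iC3b, was at 3.55 ± 0.311 RPKM in naive and 562 ± 199 RPKM in vehicle samples (log2 difference 6.90). Fibronectin (Fn1, 5.44), osteopontin (Spp1, 4.62) and E-cadherin (Cdh1, 3.91) were higher as well on the log2 scale. Of 19 genes for inside-out activation and adaptors, 16 were tested, with 8 higher and 5 lower. Cytip, which binds the LFA-1 regulator cytohesin-1, was higher by 2.94 and Cyth1, cytohesin-1 itself, by 2.05. The cytoskeletal linker Flna was higher by 1.60, and the talin-2 gene Tln2 fell by 2.46. Of 12 outside-in kinases and effectors, 4 were higher and 6 lower. The Src-family kinase Fgr, which acts below β2 integrins, was higher by 4.27, from 3.70 ± 0.236 to 89.9 ± 6.93 RPKM, and the adaptor paxillin (Pxn) fell by 0.66.

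The peptide groups at 21 DPI were compared with the same vehicle samples and with each other. 7aaRGD differs from 7aaRAE in the integrin-binding motif, at the same dose and time. Of 9 members tested, 0 passed in 7aaRGD against vehicle, where 0.148% of all genes did, 0 in 7aaRAE against vehicle (0% of all genes) and 0 in 7aaRGD against 7aaRAE (0%). At an unadjusted p under 0.05, limma gave 1, 0 and 0 members in the 3 comparisons, and 1278, 600 and 520 of 9436 genes. The log2 differences of the members ranged from -0.22 to 0.45, from -0.19 to 0.35 and from -0.12 to 0.43, and the lowest adjusted p were 0.358, 0.718 and 0.983.

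The intervals show what was resolvable. For Itgb2 the 95% interval of 7aaRGD minus 7aaRAE was -0.20 to 0.18 on the log2 scale, and for Itgam it was -0.24 to 0.18. For Itgal it was wider, -0.47 to 0.23, and for Itgax -0.20 to 0.57. Differences of a fold of 1.5 or more, 0.58 on that scale, lie outside these 4 intervals but inside those of Itga6 (-0.14 to 0.73) and Itgae (-0.09 to 0.95).

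Among the members, Itga6 had the lowest adjusted p with 7aaRGD against vehicle. It had 16.1, 15.9 and 22.2 RPKM with 7aaRGD, 14.9, 12.6 and 15.8 RPKM with 7aaRAE and, as above, 17.3, 9.48 and 12.8 RPKM with vehicle. Samples with 7aaRGD lay above those with 7aaRAE but overlapped those with vehicle, and the log2 difference from vehicle was 0.45 (adjusted p = 0.358). Itgax had 169, 164 and 161 RPKM with 7aaRGD, 131, 200.15 and 115 RPKM with 7aaRAE and 132, 122 and 148 RPKM with vehicle. All 7aaRGD samples were above the vehicle samples, by 0.30 on the log2 scale with an interval of -0.08 to 0.69 (adjusted p = 0.472), and the 7aaRAE samples covered both groups. The microglia gene sum was 1945 to 2585 RPKM with 7aaRGD, above every vehicle sample (1294 to 1882 RPKM), and 1687 to 2127 RPKM with 7aaRAE. The dendritic cell gene sum was 88.7 to 104 RPKM with 7aaRGD, 76.8 to 97.1 RPKM with 7aaRAE and 78.1 to 82.1 RPKM with vehicle. Of the cell type genes tested, 0 passed with either peptide, and their part in Itga6 and Itgax was not tested.

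The other members overlapped between 7aaRGD and vehicle. Itgb2 had 386 to 438 RPKM with 7aaRGD and 389.98 to 444 RPKM with 7aaRAE. Itgal had 103, 108 and 76.0 RPKM with 7aaRGD and 105, 111 and 94.8 RPKM with 7aaRAE, against a vehicle mean of 81.8 RPKM. Itga4, at 20.9, 22.0 and 16.2 RPKM with 7aaRGD and 20.9, 21.6 and 19.7 RPKM with 7aaRAE, reached above the vehicle mean of 17.3 RPKM in 2 of 3 samples and in 3 of 3. Itgam (58.1 to 67.5 RPKM), Itgb7 (67.6 to 83.4 RPKM) and Itga9 (9.79 to 13.2 RPKM) had narrow ranges over both peptide groups. Itgae reached 4.42 RPKM in 1 sample with 7aaRGD and was 1.33 to 2.16 RPKM in the other peptide samples. Its log2 difference was 0.42 for 7aaRGD against vehicle (interval -0.10 to 0.94, adjusted p = 0.458) and 0.43 for 7aaRGD against 7aaRAE (adjusted p = 0.983). Among the pathway genes, Jam3, an adhesion molecule bound by αMβ2, was higher with 7aaRGD by 0.84 (adjusted p = 0.0468). The Jam3 call was lost in 8 of 10 other settings and in 5 of 6 fits that left out a sample, with adjusted p up to 0.261. Of the other pathway genes tested, 0 passed with either peptide.

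At 28 DPI the leading members in vehicle samples with Itgam as deposited, Itgb2, Itgax and Itgal, were in the order they had at 21 DPI. Itgb2 led at 286 ± 16.5 RPKM (SD, n = 4), then Itgax at 206 ± 24.3 RPKM. Itgal at 65.1 ± 4.57 and Itgam at 61.2 ± 4.30 RPKM overlapped, as did Itgb7 at 29.3 ± 4.71 with Itga6 at 22.4 ± 1.14 RPKM, and Itga9 at 16.4 ± 3.31 with Itga4 at 14.4 ± 2.38 RPKM. Itgae was at 0.782 ± 0.228 RPKM and Itgad at 0.0731 to 0.138 RPKM, both below the minimum for testing, which left 8 members. The tables of the experiments were scaled separately, so the days were not compared by a test.

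**Figure D3:**
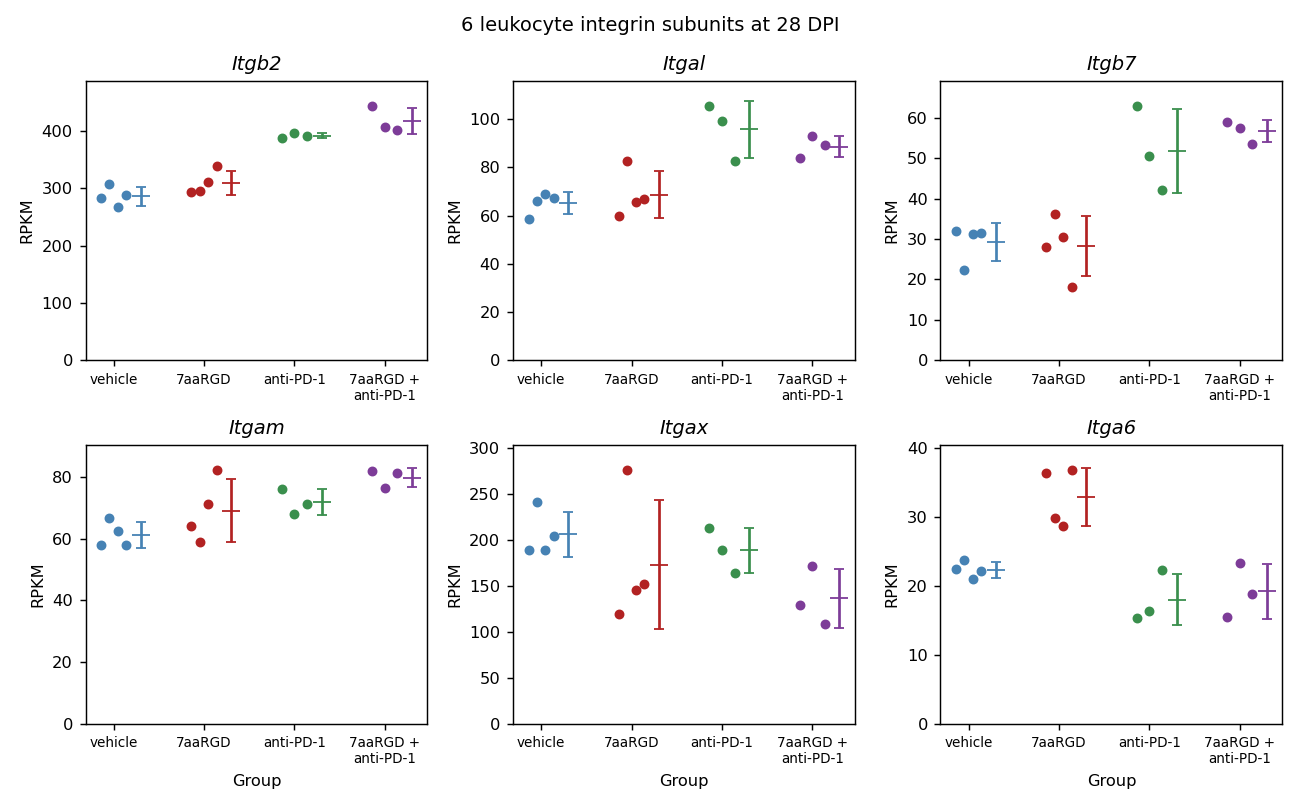
Levels of 6 members (Itgb2, Itgal, Itgb7, Itgam, Itgax and Itga6) at 28 DPI, as RPKM on linear axes that start at 0, with 4 samples in the vehicle and 7aaRGD groups and 3 in the anti-PD-1 and combination groups. Points are samples, and the bar beside them is the mean ± SD. Itgb2, Itgal and Itgb7 lie above vehicle in both groups with the antibody, Itgax is lowest on average in the combination, and Itga6 is highest with 7aaRGD alone.

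With 7aaRGD alone, 0 of 8 members passed, against 0.647% of 9732 genes. At an unadjusted p under 0.05 limma gave 1 member and 1421 genes. That member was Itga6, with 22.5, 23.8, 21.0 and 22.2 RPKM in vehicle and 36.4, 29.9, 28.8 and 36.9 RPKM in 7aaRGD samples. Every 7aaRGD sample lay above every vehicle sample, and the log2 difference was 0.53 (SE 0.13, 95% interval 0.25 to 0.82, adjusted p = 0.0982). The summed microglia markers were 1782 to 3142 RPKM in the 7aaRGD samples against 1533 to 2167 RPKM in the vehicle samples, and 1 of 8 microglia genes, Cx3cr1, passed as higher. The Cx3cr1 call was lost in 6 of 10 other settings and in 8 of 8 fits that left out a sample. 7aaRGD sample 2 stood apart in the β2 family, with Itgax at 276 RPKM against 119.55, 145 and 152 RPKM in the other samples. Leaving out each sample in turn kept the Itga6 difference between 0.48 and 0.59, with adjusted p from 0.0672 to 0.283.

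Anti-PD-1 alone was accompanied by higher β2 and β7 chains. Of 8 members, 3 passed and all 3 were higher, against 23.1% of all genes (10.8% higher and 12.2% lower). Itgb2 had 283, 307, 267 and 289 RPKM in vehicle and 388, 397 and 392 RPKM in anti-PD-1 samples, a log2 difference of 0.45 (SE 0.07, adjusted p = 0.000748). Itgal had 58.5, 65.8, 68.8 and 67.2 RPKM in vehicle and 105, 99.4 and 82.5 RPKM in anti-PD-1 samples, a difference of 0.54 (SE 0.11, adjusted p = 0.0035). Itgb7 had 32.1, 22.3, 31.4 and 31.6 RPKM in vehicle and 62.9, 50.6 and 42.1 RPKM in anti-PD-1 samples, a difference of 0.80 (SE 0.20, adjusted p = 0.0112). For all 3 genes the groups did not overlap. The share of all genes that separate in this way was not counted, here or in any other comparison. Without anti-PD-1 sample 1, the Itgb7 difference was 0.65 with an adjusted p of 0.0531.

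A further 3 members were near the threshold with the antibody alone. Itgam had 57.8, 66.8, 62.4 and 57.9 RPKM in vehicle and 76.2, 67.8 and 71.1 RPKM in anti-PD-1 samples, with no overlap and a log2 difference of 0.23 (SE 0.10, adjusted p = 0.115). Itga9 had 12.7, 18.7, 19.7 and 14.7 RPKM in vehicle and 29.6, 19.1 and 20.5 RPKM in anti-PD-1 samples, which overlapped (0.46, SE 0.21, adjusted p = 0.126). Itga6 had 15.4, 16.3 and 22.3 RPKM in anti-PD-1 samples, a difference of -0.31 (SE 0.14, adjusted p = 0.128) that became -0.47 with an adjusted p of 0.0329 without anti-PD-1 sample 3. Itgax (-0.13, 95% interval -0.62 to 0.37) and Itga4 (-0.07, interval -0.48 to 0.34) had wide intervals on both sides of 0.

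Anti-PD-1 sample 3 was lowest of its group in Itgal, Itgax, Itga4 and Itgb7. It was also lowest in the summed level of 7 natural killer cell genes, at 1.54 RPKM against 36.2 and 46.3 RPKM in samples 1 and 2 and 1.88 to 8.07 RPKM in vehicle. Natural killer cells and T cells carry αL, α4 and β7 chains. T cell genes were low at 28 DPI, with 0 of 9 reaching the minimum for testing. In sum they were 1.20 to 5.59 RPKM with anti-PD-1 and 1.14 to 2.10 RPKM in vehicle. Cd3e, the defining T cell gene, was at 0.00979 to 0.106 RPKM in vehicle and 0.0355 to 0.381 RPKM in anti-PD-1 samples. Monocyte genes were 463 to 630 RPKM in sum with anti-PD-1 and 187 to 299 RPKM in vehicle, and 5 of 8 passed as higher. Dendritic cell genes were 13.6 to 24.5 RPKM against 7.18 to 9.60 RPKM, with 2 of 3 tested passing. Xcr1, a gene of only a subset of conventional dendritic cells, was under 0.1 RPKM on average in these CD11b+ cells in both groups. Their part in the higher integrin chains was not tested.

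The combination gave the most calls at 28 DPI. Against the same vehicle samples, 5 of 8 members passed, 4 higher and 1 lower, where 43.3% of all genes passed, 17.5% higher and 25.8% lower. Higher genes were 40.5% of all calls, and 50.9% with median-of-ratios scaling. Itgb2 had 443, 407 and 403 RPKM in combination samples, higher than vehicle by 0.54 on the log2 scale (SE 0.07, adjusted p = 5.14e-05). Itgb7 had 59.0, 57.6 and 53.7 RPKM, higher by 0.94 (SE 0.20, adjusted p = 0.00189), and Itgal had 83.9, 92.9 and 89.1 RPKM, higher by 0.44 (SE 0.11, adjusted p = 0.00518). Itgam had 81.8, 76.3 and 81.2 RPKM, higher by 0.38 (SE 0.10, adjusted p = 0.0074). In each of these 4 genes, all combination samples lay above all vehicle samples.

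Itgax was the exception. Its levels were 189, 241, 189.56 and 205 RPKM in vehicle and 129, 172 and 108 RPKM in combination samples, without overlap, and it fell by 0.61 on the log2 scale (SE 0.23, adjusted p = 0.0464). This call was close to the threshold, and leaving out any 1 of 6 of the 7 samples moved its adjusted p to between 0.0593 and 0.183. It passed only without combination sample 2, and it was also lost with median-of-ratios scaling (-0.55, adjusted p = 0.0611), with all genes of the table (0.0503), with no filter on low values (0.0785) and with 1 residual degree of freedom less (0.0596). The direction was the same in all of these fits. Itga4 was at 13.7, 14.9 and 15.1 RPKM in the combination, almost level with vehicle (0.03, interval -0.38 to 0.43). Its partner Itgb7 was called and Itga4 was not, and the difference between the 2 genes was not tested.

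Cell type genes moved with the combination as well. Natural killer cell genes were 17.3 to 61.3 RPKM in sum, with 3 of 4 tested passing as higher, microglia genes 2281 to 2431 RPKM (5 of 8 higher) and monocyte genes 511 to 660 RPKM (5 of 8 higher). Dendritic cell genes were 19.0 to 25.0 RPKM, with 2 of 3 tested higher, while Itgax, which many dendritic cells express, was lower. T cell genes were 3.41 to 6.87 RPKM in sum, above every vehicle sample (1.14 to 2.10 RPKM), and Cd3e was at 0.150 to 0.403 RPKM. Their part in the integrin levels was not tested.

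**Figure D4:**
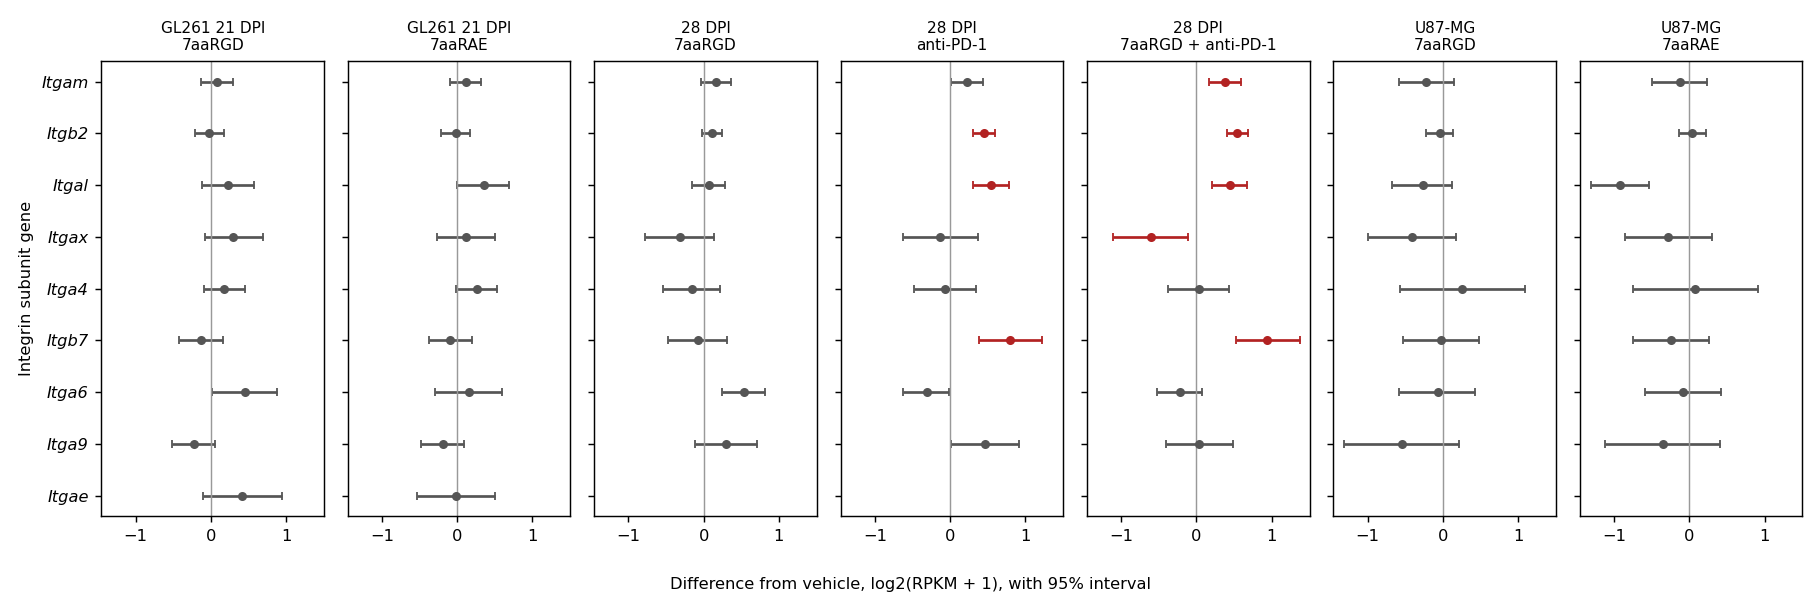
Difference of each treatment from the vehicle samples of its experiment, in log2(RPKM + 1), for the members tested, with 1 panel per treatment. Points are the limma estimates, bars their 95% intervals, the vertical line is 0, and red marks an adjusted p under 0.05. Red points appear only in the panels with anti-PD-1, where Itgb2, Itgal and Itgb7 lie right of 0 in both, and in the combination Itgam lies right and Itgax left of 0.

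Seen over the 28 DPI groups, the share of Itgax among the β2 α chains was 59.1% to 64.5% in vehicle, 51.7% to 53.9% with anti-PD-1 and 38.9% to 50.4% in the combination, in samples that did not overlap. The share of Itgal was 17.6% to 21.5%, 25.9% to 27.9% and 27.2% to 32.0%, and the last 2 overlapped. With Itgam as deposited, the α sum was 1.08 to 1.22 times Itgb2 in vehicle and 0.666 to 0.837 times in the combination. In the 7aaRGD group, 3 samples had an Itgax share of 49.2% to 51.5% and sample 2 had 66.1%. That sample also had the lowest neutrophil gene sum of its group, 55.8 RPKM against 130 to 280.4 RPKM.

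The combination was compared with each single treatment. Against anti-PD-1 alone, 0 of 8 members passed and 0 had an unadjusted p under 0.05 in limma, while 0.0411% of all genes passed and 1460 had such a p. The differences ranged from -0.48 (Itgax, interval -1.01 to 0.05) to 0.15 (Itgam and Itgb7), and the lowest adjusted p was 0.381. Combination samples lay above anti-PD-1 samples in Itgb2, by 0.09 (interval -0.07 to 0.25, adjusted p = 0.603). The same was seen in Itgam, by 0.15 (interval -0.07 to 0.38, adjusted p = 0.53). Both intervals hold 0, and the share of all genes that separate in this way was not counted. Against 7aaRGD alone, 4 of 8 members passed, 3 higher and 1 lower, with 36.6% of all genes passing, 13% higher and 23.6% lower. Higher genes made up 35.6% of those calls and 51.0% with median-of-ratios scaling.

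Against 7aaRGD, Itgb7 differed most, with 28.0, 36.1, 30.6 and 18.2 RPKM in 7aaRGD samples and a log2 difference of 1.02 (SE 0.20, adjusted p = 0.0016). Itgb2 had 294, 295, 311 and 339.65 RPKM in 7aaRGD samples and was higher in the combination by 0.43 (SE 0.07, adjusted p = 0.000474). Itgal had 59.7, 82.5, 65.5 and 67.0 RPKM, with a difference of 0.37 (SE 0.11, adjusted p = 0.0162), which became 0.34 with an adjusted p of 0.058 without combination sample 2. Groups did not overlap for these 3 genes. Itga6 had 15.5, 23.4 and 18.8 RPKM in the combination, all below the 7aaRGD samples, and fell by 0.76 (SE 0.14, adjusted p = 0.00137). Itgam, with 63.9, 58.7, 71.3 and 82.2 RPKM in 7aaRGD samples, overlapped the combination (0.22, SE 0.10, adjusted p = 0.101). The Itgam difference passed without 7aaRGD sample 4 (0.30, adjusted p = 0.0162) and with median-of-ratios scaling (0.29, adjusted p = 0.0465). In the same comparison 4 of 4 natural killer cell genes tested, 2 of 3 dendritic cell genes, 4 of 8 monocyte genes and 1 of 8 microglia genes were higher, and 0 of these were lower. Natural killer cell genes were 1.24 to 7.53 RPKM in sum in the 7aaRGD samples and monocyte genes 288 to 449 RPKM, below the combination in both cases, while the microglia sums overlapped. The part of these cells was not tested.

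The interaction term asked whether 7aaRGD had the same effect with and without the antibody. It passed for 0 of 8 members and for 0% of all genes. At an unadjusted p under 0.05, limma gave 2 members and 794 genes. The members were Itga9 (-0.72, SE 0.29, adjusted p = 0.595) and Itga6 (-0.44, SE 0.20, adjusted p = 0.605). For Itga9, the combination samples had 13.7, 21.7 and 15.5 RPKM and the 7aaRGD samples 15.5, 26.2, 21.7 and 18.4 RPKM, so that each pair of the 4 groups overlapped.

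Pathway genes in the 28 DPI groups were read beside the shares of all genes that passed, 23.1% with anti-PD-1 and 43.3% in the combination. With anti-PD-1, 3 of 9 ligand genes tested were higher and 1 lower, and in the combination 4 and 1. C3 was at 196 ± 39.4 RPKM in vehicle, 543 ± 113 RPKM with anti-PD-1 and 810.1 ± 185 RPKM in the combination, with log2 differences from vehicle of 1.46 and 2.04. Vcam1, whose product is bound by α4 and α9 integrins, was at 44.0 ± 12.6, 18.7 ± 12.1 and 13.9 ± 4.32 RPKM and fell by 1.37 and 1.58. Icam1, a ligand of LFA-1 and αMβ2, was higher by 0.48 and 0.78. The β1 gene Itgb1 was higher by 0.29 and 0.36. Among 16 activation and adaptor genes tested, 2 were higher and 1 lower with anti-PD-1, and 3 higher and 7 lower in the combination. Rassf5, the RAPL gene that links Rap1 to LFA-1, fell by 0.31 and 0.46. The largest change among these genes in the combination was in the talin-2 gene Tln2, which was higher by 0.75. Fermt3, the kindlin-3 gene needed to activate β2 integrins, fell there by 0.38 and Cyth1 by 0.62. Of 12 outside-in genes, 3 were higher with anti-PD-1, and 3 were higher and 2 lower in the combination. Syk, the kinase below β2 integrins, was higher by 0.25 and 0.42. With anti-PD-1 alone, the calls of Vcam1 and Rassf5 were each lost in 5 of 7 fits that left out a sample, and that of Syk in 2 of 7. Over all alternatives their highest adjusted p was 0.112, 0.143 and 0.0597. With 7aaRGD alone, 0 genes of these 4 lists passed, and in the combination against anti-PD-1, 0 as well.

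In the U87-MG experiment the leading members, Itgb2, Itgam and Itga6, were those that led in naive brain. As deposited, Itgb2 was at 316 ± 8.39 RPKM (SD, n = 3) in vehicle samples, then Itgam at 180.3 ± 16.5 and Itga6 at 86.8 ± 11.3 RPKM. Itgax at 21.0 ± 3.21, Itgal at 15.6 ± 4.74 and Itga9 at 12.1 ± 1.44 RPKM followed, with overlap between neighbours. Itgb7 at 4.97 ± 0.762 and Itga4 at 4.49 ± 1.07 RPKM overlapped too, and Itgae was at 0.423 ± 0.115 RPKM. Itga6 and Itgb7 lay close to their naive C57BL/6 levels, and Itgam above it, but strain, tumor and table differ together and cannot be told apart.

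**Figure D5:**
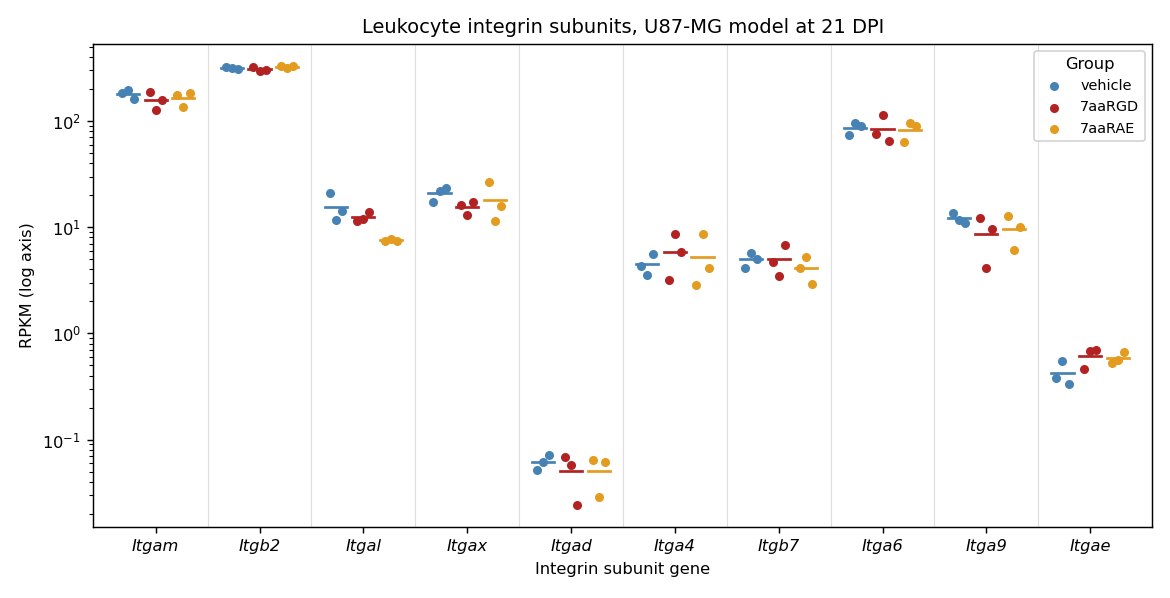
Levels of the 10 members in CD11b+ cells of U87-MG tumors in nude mice, as RPKM on a log axis, with 3 samples in each of the vehicle, 7aaRGD and 7aaRAE groups. Points are samples and bars are means. The groups overlap for most members, and the 3 7aaRAE samples of Itgal lie below all others.

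Neither peptide gave a call among the members. In 7aaRGD against vehicle, 0 of 8 members and 0% of 9659 genes passed, and limma gave 0 members and 364 genes at an unadjusted p under 0.05. In 7aaRAE against vehicle, 0 members passed, against 0.0104% of all genes, with 1 member and 746 genes at an unadjusted p under 0.05. In 7aaRGD against 7aaRAE, 0 members and 0% of genes passed, with 1 member and 326 genes at that p. The differences from vehicle ranged from -0.55 to 0.26 with 7aaRGD and from -0.92 to 0.08 with 7aaRAE.

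The member with an unadjusted p under 0.05 was Itgal in both cases. It had 20.8, 11.6 and 14.2 RPKM with vehicle, 11.4, 11.9 and 13.9 RPKM with 7aaRGD and 7.46, 7.69 and 7.42 RPKM with 7aaRAE. The 7aaRAE samples lay below all others, with a log2 difference from vehicle of -0.92 (SE 0.17, adjusted p = 0.187), and 7aaRGD minus 7aaRAE was 0.65 (SE 0.17, adjusted p = 1). Natural killer cell genes were 0.182 to 1.66 RPKM in sum with 7aaRAE, 1.20 to 5.91 RPKM with 7aaRGD and 6.50 to 17.4 RPKM with vehicle, and their part was not tested.

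The remaining members of the U87-MG groups overlapped. Itgam had 186, 126 and 157 RPKM with 7aaRGD and 177, 136 and 183 RPKM with 7aaRAE, and Itga6 had 74.8, 115 and 64.2 RPKM and 63.8, 94.96 and 88.8 RPKM. Their intervals for 7aaRGD against 7aaRAE were -0.45 to 0.28 and -0.49 to 0.52. Itgb2 was at 298 to 326 RPKM with 7aaRGD and 317 to 330.2 RPKM with 7aaRAE, and its interval was -0.25 to 0.10. Itgax had 16.1, 13.1 and 17.5 RPKM with 7aaRGD against 17.4, 22.1 and 23.5 RPKM with vehicle (-0.41, interval -0.99 to 0.17). Itga9 had 12.1, 4.09 and 9.61 RPKM with 7aaRGD, and Itga4 had 3.16, 8.62 and 5.84 RPKM. The spread among these 7aaRGD samples of Itga9 and Itga4 exceeded the difference of their mean from vehicle. Of the pathway lists, 0 genes passed with either peptide.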

How the data were processed

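RNA of CD11b+ cells was sequenced from strand-specific poly-A libraries. Trimmomatic, STAR with mm10, Picard and a strand-specific HTSeq-count 0.11.1 were run by the authors, in that order. Each deposited value equals an RPKM to which 2 had been added. The unit was read from the values, because RPKM times exonic length (GENCODE M21) summed to 0.988 to 1.007 of the total that RPKM implies in each sample. The constant was subtracted. Between 4.51% and 5.21% of protein-coding values fell below it and were set to 0 for testing, and 0 of these were member values. Count tests could not be used and depth is unknown. In the first and second experiments, replicate differences spanned 7 of 8 and 9 of 10 dimensions, a step whose origin is not given in the sources used here.

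Values were tested as log2(RPKM + 1), pseudocount 1, with limma 3.58.1 in R 4.3.3 (lmFit, eBayes with a trend). Of 21826 protein-coding genes, those whose mean over the fitted samples reached 1 RPKM were tested, and Benjamini-Hochberg adjustment covered all of them, with a threshold of 0.05. A fold change on this scale understates that of low genes. Tumor-bearing groups of a table were fitted together, and naive with vehicle alone. The tests were tried on simulated data. Python 3.11.15 with numpy 2.4.6 and pandas 2.3.3 made the summaries.

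The members, gene lists and tests were chosen with earlier results of these data known. Every member was named. A difference was given in full where it passed, where groups did not overlap and it reached 0.5, or where its adjusted p was under 0.2; up to 4 passing genes were named per list and comparison, those with the largest change, and intervals or values of other members were added where a comparison turned on them. Cx3cr1 was named after its values were seen. Markers of B cells, endothelial cells, platelets, oligodendrocytes and astrocytes were also read. Alternatives were other pseudocounts, filters and scalings, all genes of the table, other fits, a replicate block, 1 residual degree of freedom less, each sample left out and, added after seeing the data, Itgam without its shared exons. For Itgb7, 1 of the 3 genes with the most similar pattern is not reported here.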

Additional observations from a re-analysis of the deposited data

Results flagged for a closer look

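Among 28 sets of values from groups of 4 samples, 4 had 1 sample far from the others, with a gap to the nearest beyond Dixon's 95% critical value. Chance alone gives about 1 in 20 such sets. In vehicle samples at 28 DPI, Itgb7 was 22.3 RPKM in sample 2 and 31.4 to 32.1 RPKM in the other samples. The other 3 all came from 7aaRGD sample 2 at 28 DPI and share their values. Its Itgam share of the β2 α chains was 14.1%, against 25.2% to 27.3% in the others, its Itgax share was 66.1% and its α sum was 1.42 times Itgb2.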

How the results depend on the processing

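Of 216 recomputed counts of members that passed, 216 were within 1.5 times the reported count, and of 452 recomputed log2 differences 436 kept direction and side of the threshold, 13 lost the call, 3 gained one and 0 turned sign. The changes are given beside their results in the text, where Itgax in the combination against vehicle, Itgb2 against naive, Itgb7 with anti-PD-1 and Itgal in the combination against 7aaRGD lost a call. With each sample left out in turn, the count was 9 in every case for vehicle against naive, 2 to 4 for anti-PD-1, 4 to 5 for the combination against vehicle, 3 to 5 against 7aaRGD and 0 in the other 9 comparisons. Where a group was left with 2 samples, the spread came from all groups fitted.

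Counts over all genes moved more. Against naive, 8057 became 5286 with a mean of at least 5 RPKM. For 7aaRGD at 21 DPI, 14 became 0 to 74 (0 to 120 with samples left out), and at 28 DPI 63 became 0 to 93 (0 to 1). The combination against anti-PD-1 had 4 and 0 to 20 (0 to 26), 7aaRGD against 7aaRAE 0 and 0 to 7, and U87-MG 7aaRAE 1 and 0 to 32. The cause was not tested. Median-of-ratios scaling moved the median of all genes against naive from -0.14 to 0.01.

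Replicate numbers did not pair the samples, since 1 of 18 same-numbered pairs at 21 DPI and 3 of 19 at 28 DPI had a correlation over 0.1. With the replicate block, 9 members passed against naive, 3 with anti-PD-1, 5 in the combination against vehicle and 4 against 7aaRGD. In the other comparisons of the first and second experiments, 0 passed. For U87-MG alone no paired fit could be made, because its columns carry no replicate numbers. Itgad throughout, and Itgae outside the GL261 experiment at 21 DPI, were too low to test.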

Other observations

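For each member, 2 or 3 genes with the most similar pattern were listed by the mean Pearson r over the 3 tables (12, 14 and 9 samples), among 9065 genes. Samples of a table share their groups, so these values describe the tables and carry no test. Itgam was most like Lman1 (0.941), Epb41l2 (0.938) and Olfml3 (0.938). Itgal was most like Haus8 (0.919), Cd300ld (0.915) and Pilrb2 (0.903), and Itgax like Tep1 (0.861), Tmem205 (0.857) and Rfc2 (0.828). Itgb2 had lower values, with Gbp2 (0.835), Jak3 (0.832) and Pfkl (0.828).

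Itga4 was most like Cybb (0.933), Hpcal1 (0.926) and Tmem123 (0.906), and its partner Itgb7 like Crybg1 (0.908) and S100a11 (0.903). For Itga6 the genes were Sgpp1 (0.880), B3galnt1 (0.869) and Stab1 (0.866), and for Itga9 Elmo1 (0.845), Arhgap27 (0.840) and Gstk1 (0.815). Itgad and Itgae were below 1 RPKM in at least 1 table and were not compared.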
